A study of Danio rerio with 8 samples.

Results

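The 9 genes mdm2, cdkn1a, ccng1, btg2, sesn1, tp53inp1, phlda3, zmat3 and aen form a set of p53 target genes that act in growth arrest and in feedback on p53. They were taken by symbol from a table of 36351 rows, and 8 of the 9 had a row. No row carried the symbol aen, an exonuclease gene, and it was not analysed here. All 8 that were found passed the filter on low counts, so they are described below as the 8 measured genes. The libraries came from whole zebrafish embryos collected in small pools at 26 hours post fertilisation (hpf), 4 wild-type pools and 4 pools with the genotype MZ osgep G177A/G177A. MZ stands for maternal-zygotic, meaning that both the mother's contribution and the embryo's own genome carried only the G177A allele. osgep encodes the catalytic subunit of KEOPS, the complex that places threonylcarbamoyladenosine on a group of tRNAs. The wild-type strain, the number of embryos in a pool and any tie of a pool to a clutch were not stated in the labels.

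p53 is a transcription factor that is kept scarce in unstressed cells and accumulates after DNA damage, ribosome faults and other stresses. Among its targets is mdm2, whose product is the ubiquitin ligase that marks p53 for destruction, so a rise of p53 activity brings a rise of its own inhibitor. Other targets halt the cell cycle, slow growth signalling or promote death, and in zebrafish embryos loss of mdm2 is lethal through p53.

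Of the 8 measured genes 6 were higher in the mutant pools, and each of these differed by more than 2-fold. They were cdkn1a, phlda3, ccng1, tp53inp1, mdm2 and sesn1. zmat3 was lower at the edge of the threshold, and btg2 did not pass. Over all 22467 genes tested 15.8% were called higher and 16.3% lower, against 75% (6 of 8) and 12.5% (1 of 8) of the measured members. The members were chosen with earlier results of these data known, so these shares are a description and no test of the set. Calls higher by at least 2-fold made up 7.62% of all genes. A gene was called at an adjusted p under 0.05, where p came from the quasi-likelihood test of edgeR and was adjusted by the Benjamini-Hochberg method over all genes. The median log2 fold change, mutant minus wild type, was 1.43 over the 8 genes and 0.004 over all genes. Levels are read counts scaled to library size (CPM) after scaling between libraries by the TMM method, and the values listed for a genotype follow pools 1 to 4. Transcript lengths were not used, so levels are compared between genotypes and not between genes.

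The libraries held 21290942 to 27675104 counts each. osgep itself stood between 16.1 and 23.2 CPM in the wild-type pools and between 8.38 and 13.8 CPM in the mutant pools. On the sum of 8 skeletal muscle markers the wild-type pools reached 3240 to 4095 CPM and the mutant pools 457 to 545 CPM, and all 8 fell. Summed lens markers (21.9 to 37.4 against 1.07 to 2.10 CPM) and neuron markers (682 to 843 against 509 to 611 CPM) were also lower, with no overlap of the genotypes, and 4 of 4 and 3 of 6 of their tested genes fell. Summed myeloid markers were higher, at 5.09 to 14.7 against 18.0 to 28.1 CPM, and 2 of 5 rose. The sums for erythroid, endothelial, epidermis, heart and pronephros markers overlapped, though single genes passed the test in all of these lists but pronephros. In the epidermis list, whose sum was mostly krt4, krtt1c19e fell to 9.63% of its wild-type level and cdh1 rose 1.73-fold. gata1a rose 2.59-fold in the erythroid list, 1 of 5 endothelial markers rose and 1 fell, and 1 of 3 tested heart markers rose. At an unadjusted p under 0.05 alone, in edgeR, 2 of 4 pronephros markers were higher. Many of all genes met that limit, so this is not read as a rise of the pronephros markers. No marker of the 9 tissues was at 0 in every library. In whole-embryo RNA fewer cells of a type and less RNA per cell cannot be told apart, and the part of these tissue differences in the results below was not tested. Mutant pool 1 and wild-type pool 4 stood at the 2 ends of the second principal component, which held 27.9% of the variance. Ribosomal protein genes took 7.26% to 14.4% of the counts, with mutant pool 1 highest, and mitochondrial transcripts 2.00% to 5.84%.

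**Figure D1:**
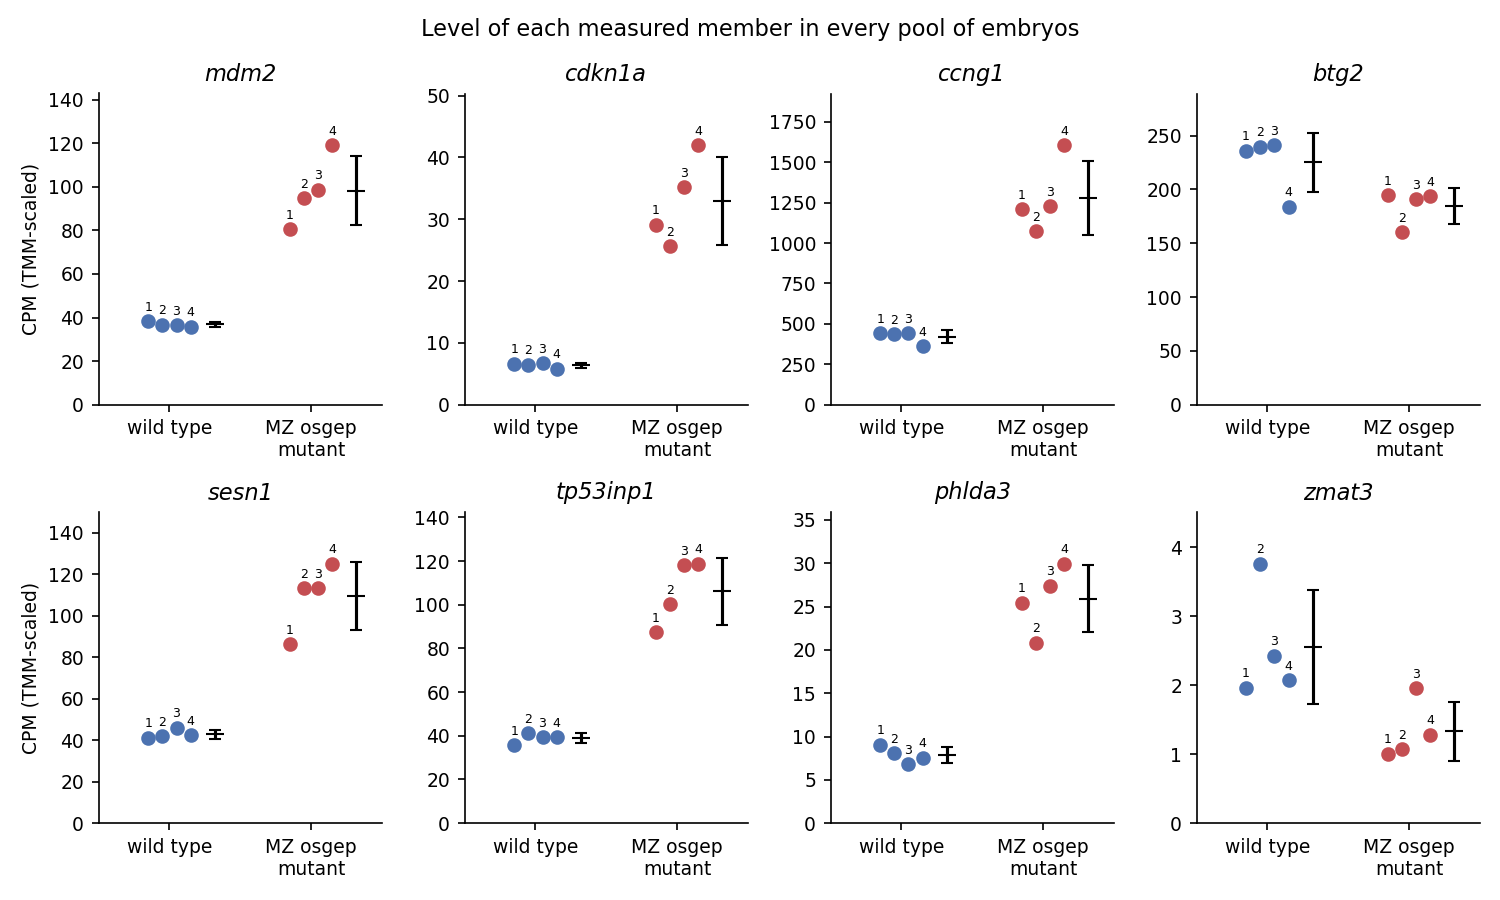
Level of each measured gene in CPM (vertical axis, from 0) in the 4 wild-type pools (blue) and the 4 mutant pools (red), each point labelled with its pool number, with the mean and SD beside the points. For cdkn1a the mutant pools lie between 25.6 and 42.0 CPM and the wild-type pools between 5.80 and 6.67 CPM, while the genotypes overlap for btg2.

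mdm2 (ENSDARG00000033443), the feedback inhibitor of p53, measured 38.2, 36.6, 36.5 and 35.8 CPM in the wild-type pools and 80.6, 94.7, 98.7 and 119 CPM in the mutant pools. All mutant pools lay above all wild-type pools, and the wild-type pools were close together. The means were 36.8 ± 1.05 and 98.3 ± 15.8 CPM (SD, n = 4 each), a 2.67-fold rise (log2 fold change 1.42, SE 0.12, adjusted p = 9.20e-05 in edgeR). It ranked 258 by p among the 22467 genes tested.

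The growth arrest genes divided. cdkn1a (ENSDARG00000076554), which encodes the p21 inhibitor of cyclin-dependent kinases, measured 6.60, 6.46, 6.67 and 5.80 CPM in wild type and 29.1, 25.6, 35.2 and 42.0 CPM in the mutant. The lowest mutant pool stood well above the highest wild-type pool. Its rise was 5.17-fold, the largest of the 8 genes (log2 fold change 2.37, SE 0.17, adjusted p = 3.49e-05 in edgeR), and 97.95% of all genes tested had a log2 fold change at or below it. ccng1 (ENSDARG00000076667), which encodes cyclin G1, an atypical cyclin that recruits a phosphatase to MDM2 in mammals, measured 442, 436, 443 and 362 CPM in wild type and 1210, 1074, 1229 and 1604 CPM in the mutant. Wild-type pool 4 was the low pool of its genotype, and the genotypes did not overlap. The rise was 3.04-fold (log2 fold change 1.60, SE 0.15, adjusted p = 0.000168 in edgeR).

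btg2 (ENSDARG00000020298), an antiproliferative gene whose product recruits the deadenylase complex in mammals, did not rise. It measured 236, 240, 241 and 184 CPM in wild type and 195, 160, 191 and 194 CPM in the mutant. Wild-type pool 4 lay inside the range of the mutant pools, and the other 3 wild-type pools lay above it. The mutant stood at 82.1% of the wild-type level (log2 fold change −0.28, 95% interval −0.55 to −0.02, adjusted p = 0.0983 in edgeR), and the interval lay below 0. Without wild-type pool 4 btg2 passed as lower (log2 fold change −0.37, adjusted p = 0.0213 in edgeR). A fit that included the share of ribosomal protein counts also called it lower (−0.23, adjusted p = 0.0334), and the adjusted p ranged between 0.00901 and 0.224 across the 17 alternatives. btg2 was called under 3 of these 17.

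Each of sesn1, tp53inp1 and phlda3, which act on growth signalling or in the stress response, was higher in the mutant. sesn1 (ENSDARG00000020693), which encodes a sestrin, an inhibitor of mTORC1 signalling, measured 41.1, 42.0, 46.0 and 42.5 CPM in wild type. The mutant pools stood at 86.1, 113, 113 and 125 CPM, all above the wild-type pools, with mutant pool 1 lowest. The rise was 2.55-fold (log2 fold change 1.35, SE 0.12, adjusted p = 0.000117 in edgeR). tp53inp1 (ENSDARG00000028017), which encodes a p53-induced nuclear protein that takes part in autophagy and cell death, measured 35.6, 41.1, 39.3 and 39.4 CPM in wild type. In the mutant it stood at 87.3, 100.2, 118 and 119 CPM, again without overlap. The rise was 2.73-fold (log2 fold change 1.45, SE 0.12, adjusted p = 7.23e-05 in edgeR). phlda3 (ENSDARG00000037804), whose product competes with AKT for membrane lipids in mammals, measured 9.05, 8.07, 6.81 and 7.56 CPM in wild type and 25.4, 20.8, 27.4 and 29.9 CPM in the mutant. The genotypes did not overlap, and mutant pool 2 was the lowest of the mutant pools. The rise was 3.29-fold (log2 fold change 1.72, SE 0.15, adjusted p = 0.000101 in edgeR).

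zmat3 (ENSDARG00000080021), which encodes a zinc finger RNA-binding protein that acts on splicing and mRNA stability in mammals, went the other way and was the gene with the fewest counts. Its counts summed to 245 in wild type and 135 in the mutant. The levels were 1.97, 3.76, 2.43 and 2.08 CPM in wild type and 1.01, 1.07, 1.95 and 1.29 CPM in the mutant. Mutant pool 3 came within a small margin of wild-type pool 1, and wild-type pool 2 was the high pool. The mutant stood at 52.1% of wild type (log2 fold change −0.94, SE 0.31, adjusted p = 0.0491 in edgeR). The call held under 6 of 17 alternatives. It was lost without wild-type pool 1 or 3 or mutant pool 1, 2 or 4, and most clearly without wild-type pool 2 (log2 fold change −0.70, adjusted p = 0.149 in edgeR). Its direction was lower under all 17.

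The genotypes did not overlap for 6 of the 8 genes in the higher direction and for 1 in the lower direction, where 16% and 17.6% of all genes tested did so. An exact two-sided permutation test on log2 CPM returned its lowest possible value for 4 against 4 pools, p = 0.0286, for each of these 7 genes. Groups that do not overlap always give this value, so it adds nothing to the lack of overlap. For btg2 the same permutation test gave p = 0.114. Each of the 6 risen genes was called as higher under all 17 alternatives, with log2 fold changes from 2.24 to 2.48 for cdkn1a, from 1.64 to 1.81 for phlda3 and from 1.28 to 1.45 for sesn1. With mutant pool 1 and wild-type pool 4 both left out, a choice made after seeing the data, 6 of the 8 genes were again higher.

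**Figure D2:**
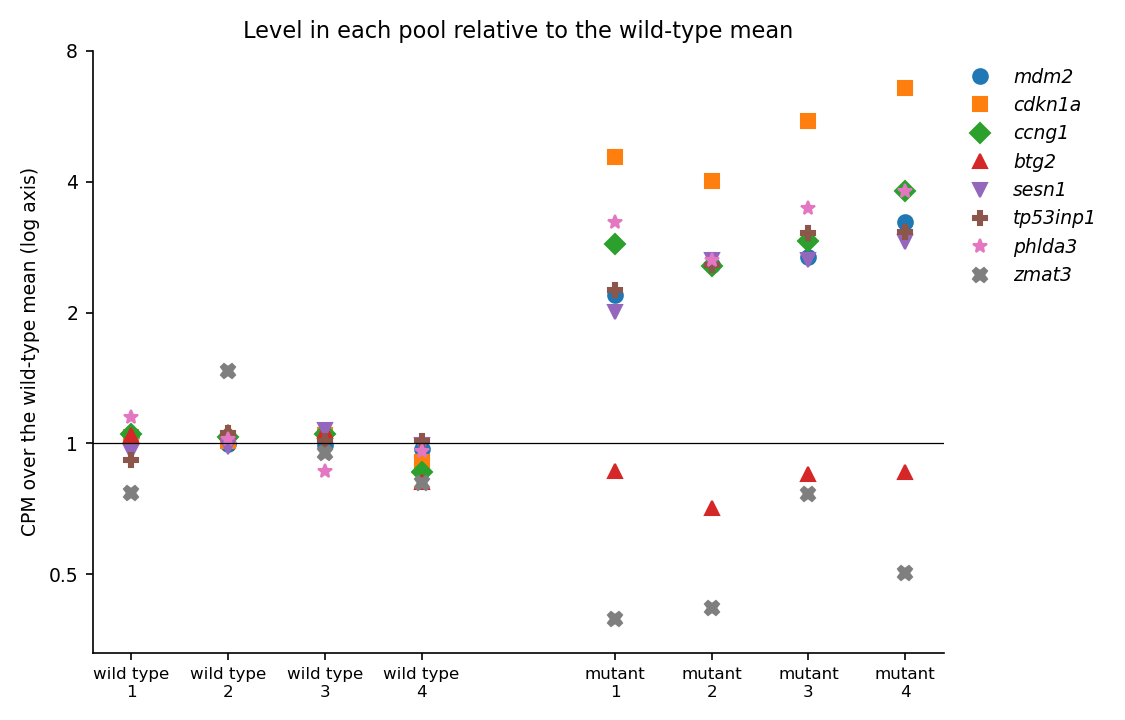
Level of each measured gene in each pool divided by its wild-type mean (vertical axis, log scale), with wild-type pools on the left and mutant pools on the right and a line at the wild-type mean. The 6 risen genes lie between 2.01 and 6.57 in the mutant pools, with mutant pool 4 highest for each of them, and btg2 and zmat3 lie below the line in all 4 mutant pools.

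The mutant pools differed among themselves in how far the 6 genes had risen. Relative to the wild-type mean, the median over the 6 genes was 2.56 in mutant pool 1, 2.61 in pool 2, 2.98 in pool 3 and 3.52 in pool 4. Mutant pool 4 was the highest of its genotype for all 6, and mutant pool 3 was next for all 6. The lowest pool was mutant pool 1 for mdm2, sesn1 and tp53inp1, and mutant pool 2 for cdkn1a, ccng1 and phlda3. The ribosomal protein share was 14.4%, 7.26%, 8.80% and 9.90% in mutant pools 1 to 4. All 6 genes rose with it from pool 2 to 3 to 4, but not in pool 1. Whether the share bears on the order of the pools was not tested. btg2 and zmat3 had other orders, with mutant pools 1 and 3 highest, respectively. The coefficient of variation among the 4 pools was larger in the mutant than in wild type for all 6, as for mdm2 (2.84% and 16.1%), cdkn1a (6.26% and 21.7%) and sesn1 (5.04% and 15.0%). These orders are descriptions of 4 pools, with no test.

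Whether the genes differed between genotypes to an equal extent was asked with the log2 ratio of each gene to mdm2 within a library, which does not depend on the scaling between libraries. Relative to mdm2, cdkn1a stood at −2.53 ± 0.07 in wild type and −1.59 ± 0.20 in the mutant (log2, SD, n = 4), a shift of 0.94 with no overlap of the genotypes. btg2 shifted by −1.68 and zmat3 by −2.34, also with no overlap. Each of these 3 reached p = 0.0286, the lowest possible value, in the exact two-sided permutation test. After Benjamini-Hochberg adjustment over the 7 ratios this became 0.0667, so none passed. With 3 of 7 ratios at the lowest possible p the adjusted value could not be smaller. The ratios of the other 4 genes overlapped between the genotypes. Their shifts were 0.31 for phlda3 (exact permutation p = 0.0857), 0.19 for ccng1 (exact permutation p = 0.143), 0.04 for tp53inp1 (exact permutation p = 0.686) and −0.07 for sesn1 (exact permutation p = 0.4). With mutant pool 2 left out the ratios of cdkn1a, ccng1, phlda3, btg2 and zmat3 had an adjusted p of 0.04 in the exact permutation test. In that setting none of these ratios overlapped between the genotypes, and the adjusted value follows from how many did not.

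The genes most like mdm2 and cdkn1a were sought among 14229 genes by the mean absolute difference over the 8 libraries in log2 CPM, each gene taken relative to its own wild-type mean. The nearest to mdm2 were akt1s1, whose product PRAS40 is a subunit of mTORC1 (difference 0.06), sesn1 itself (0.08) and the zinc finger gene znf395a (0.08). akt1s1 went from 81.0 ± 3.83 to 230 ± 25.9 CPM and znf395a from 80.2 ± 2.99 to 209 ± 17.5 CPM. tp53inp1 was the gene 4th nearest to mdm2 and ccng1 the 12th. The nearest to cdkn1a were the nucleotide triphosphatase gene ntpcr (0.13), the asparagine synthetase gene asns (0.14) and the bZIP factor gene cebpg (0.14). asns went from 73.1 ± 4.90 to 394 ± 23.4 CPM and cebpg from 47.8 ± 1.94 to 208 ± 18.4 CPM. Of the other measured members phlda3 was the nearest to cdkn1a, at rank 82 (difference 0.38). The measure is set mainly by the size of the difference between genotypes and describes 8 libraries.

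**Figure D3:**
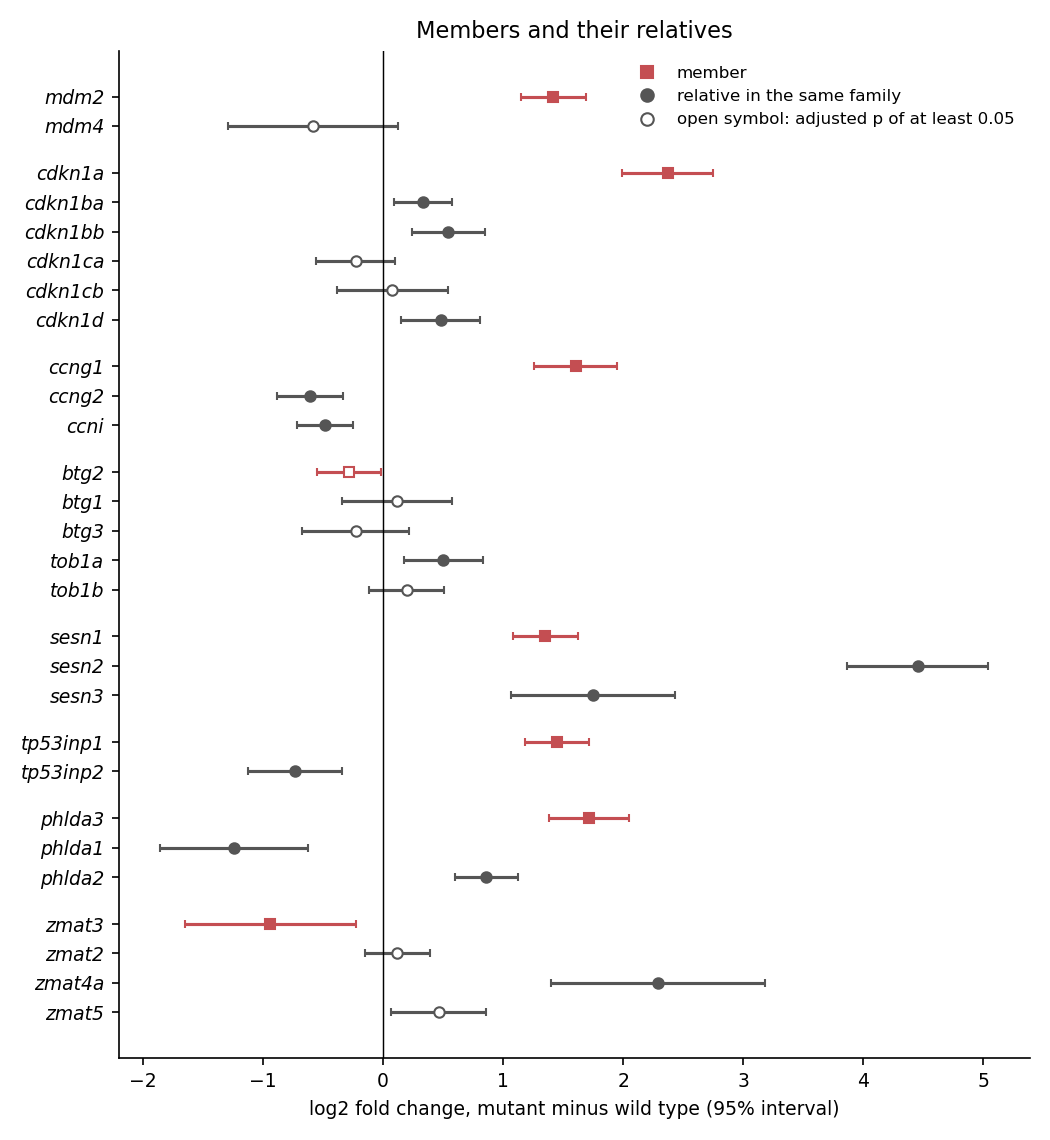
Log2 fold change, mutant minus wild type (horizontal axis), with its 95% interval for each measured member (red squares) and its measured relatives in the same family (grey circles), with open symbols where the adjusted p was at least 0.05. cdkn1a lies at 2.37 and its relatives between −0.23 and 0.54, and sesn2 lies at 4.45 beside sesn1 at 1.35.

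Relatives of the members in the same gene families were called higher in 9 of 23 cases and lower in 4, 2 of the 25 listed having too few counts to test, with a median log2 fold change of 0.20. These are shares of 39.1% and 17.4%, beside 15.8% and 16.3% of all genes tested, so the share called lower was near that of all genes. Among the inhibitors of cyclin-dependent kinases related to cdkn1a, cdkn1bb rose from 34.8 ± 5.12 to 50.8 ± 5.99 CPM. Smaller rises of cdkn1d (7.01 ± 0.656 to 9.77 ± 1.32 CPM, adjusted p = 0.033) and cdkn1ba (29.0 ± 2.31 to 36.6 ± 3.85 CPM, adjusted p = 0.0411) held in edgeR under 7 and 8 of 17 alternatives. cdkn1ca (129 ± 15.5 and 110.0 ± 19.1 CPM) and cdkn1cb (9.63 ± 2.11 and 10.2 ± 2.02 CPM) did not pass. The ratio of each of these 5 relatives to cdkn1a was lower in the mutant without overlap, by 1.79 to 2.58 on the log2 scale. This family of 20 ratios of a relative to its member was chosen after the values were seen. A ratio without overlap had p = 0.0286 in the exact permutation test and an adjusted p of 0.0358. The member's own difference between genotypes enters each ratio, so these p-values are no separate test of the relative.

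The cyclin relatives of ccng1 fell where ccng1 rose. ccng2 went from 25.1 ± 1.97 to 16.4 ± 2.20 CPM and ccni from 107 ± 5.12 to 76.6 ± 9.11 CPM. Their ratios to ccng1 dropped by 2.21 and 2.08 on the log2 scale, both without overlap. tp53inp2, the relative of tp53inp1, also fell, from 48.0 ± 6.27 to 28.8 ± 6.56 CPM, and its ratio to tp53inp1 dropped by 2.19. In the phlda family phlda1 fell from 28.0 ± 7.06 to 11.8 ± 3.47 CPM, while phlda2 rose from 13.5 ± 1.76 to 24.6 ± 1.42 CPM.

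All 3 sestrin genes rose. sesn2 measured 3.41, 2.82, 2.29 and 5.40 CPM in the wild-type pools and 68.0, 82.2, 81.8 and 74.5 CPM in the mutant pools, without overlap. This was a 21.9-fold rise (log2 fold change 4.45, SE 0.26, adjusted p = 1.29e-05 in edgeR), and the ratio of sesn2 to sesn1 rose by 3.19 on the log2 scale without overlap. As background, sesn2 is known in mammals as a target of ATF4 as well as of p53. sesn3 stood at 17.4 to 29.1 CPM in wild type and 43.5 to 112 CPM in the mutant (adjusted p = 0.00284 in edgeR), and its ratio to sesn1 overlapped between the genotypes (shift 0.35, exact permutation p = 0.257). The deposited counts of sesn1 and tp53inp1 were not whole numbers in every library, which arises where reads are divided among several places, while those of the other 6 measured genes were whole throughout.

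In the family of btg2, tob1a rose from 28.6 ± 2.55 to 40.6 ± 8.12 CPM (adjusted p = 0.0283, called under 12 of 17 alternatives), while btg1 (197 ± 36.1 and 214 ± 52.6 CPM), btg3 (46.7 ± 9.60 and 39.8 ± 8.84 CPM) and tob1b (68.2 ± 9.35 and 78.3 ± 11.9 CPM) did not pass. Among the relatives of zmat3, zmat4a rose from 0.823 ± 0.092 to 4.06 ± 2.31 CPM, and zmat2 (59.2 ± 6.90 and 64.2 ± 7.04 CPM) and zmat5 (5.55 ± 1.06 and 7.64 ± 0.837 CPM) did not pass. Of the exonuclease genes related to aen, isg20 rose from 54.5 ± 5.60 to 98.7 ± 19.1 CPM, and rexo4 (25.2 ± 1.40 and 31.6 ± 4.47 CPM) and isg20l2 (9.58 ± 2.15 and 9.84 ± 2.77 CPM) did not pass. mdm4, which encodes a partner of MDM2 that holds p53 inactive, measured 171, 116, 156 and 89.2 CPM in wild type and 148, 60.9, 72.8 and 72.2 CPM in the mutant. Mutant pool 1 lay among the wild-type pools, and mdm4 did not pass (log2 fold change −0.59, adjusted p = 0.187 in edgeR). It passed as lower without mutant pool 1 (log2 fold change −0.95, adjusted p = 0.0117), with the replicate number as a block (adjusted p = 0.0309) and when ribosomal protein share was a covariate (adjusted p = 0.000559), each by edgeR. With wild-type pool 4 and mutant pool 1 both left out, a choice made after seeing the data, it also passed (log2 fold change −1.10, adjusted p = 0.000784 in edgeR). In all, mdm4 was called under 4 of 17 alternatives. Its ratio to mdm2 dropped by 2.04 on the log2 scale, without overlap (exact permutation p = 0.0286, adjusted p = 0.0358). mdm2 itself rose by 1.42 on that scale and enters the ratio, so this is no separate test of mdm4.

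**Figure D4:**
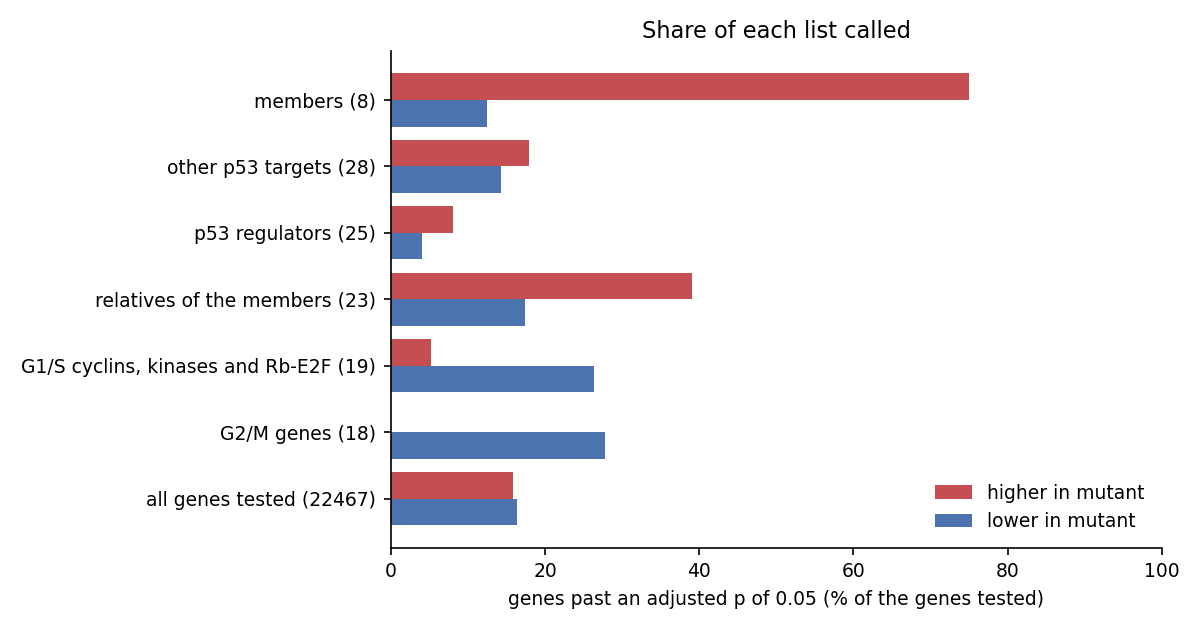
Share of the genes tested in each list that were called higher (red) or lower (blue) in the mutant at an adjusted p under 0.05, with the number tested in brackets and all genes tested at the bottom. The measured members reach 75% higher, the other p53 targets 17.9%, and all genes 15.8%. The members and lists were chosen with earlier results of these data known.

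Other genes of the p53 programme were called in both directions. On a list of 33 further targets known from human cells, 28 were tested, 5 were called higher and 4 lower. These shares of 17.9% and 14.3% were near the 15.8% and 16.3% of all genes, and the median log2 fold change was −0.02. Some genes stood on more than 1 list. sesn2 was also counted among the relatives, and ppm1da also among the genes that act on p53. Beside sesn2, ddb2, a nucleotide excision repair gene, rose from 17.3 ± 2.13 to 29.4 ± 0.807 CPM. triap1, whose product acts in mitochondrial lipid transport, fell from 11.9 ± 1.34 to 5.13 ± 0.684 CPM, and the ubiquitin ligase gene trim8b fell from 63.2 ± 3.13 to 39.5 ± 2.78 CPM.

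Of 25 genes whose products act on p53, 2 were called higher and 1 lower, with a median log2 fold change of 0.06. The shares were 8% and 4%, beside 15.8% and 16.3% of all genes tested. tp53bp1, a damage response gene, rose from 99.2 ± 4.74 to 132 ± 8.62 CPM. The calls of tp53bp2a (95.6 ± 10.3 to 129 ± 15.6 CPM, adjusted p = 0.0224) and of the kinase gene hipk2 (25.3 ± 2.48 to 19.1 ± 2.84 CPM, adjusted p = 0.0443) held in edgeR under 11 and 8 of 17 alternatives. The count higher was 1 without wild-type pool 1 or 2 or mutant pool 3 or 4, and the count lower was 3 without mutant pool 1 and 0 without any of the other libraries. Over all genes, leaving out each library gave 2630 to 4080 higher and 2680 to 4522 lower. The phosphatase gene ppm1da, itself a p53 target in human cells and an inhibitor of the pathway, did not pass, with wild-type pools at 51.2 ± 1.59 CPM and mutant pools at 54.2 ± 3.74 CPM (95% interval of the log2 fold change −0.10 to 0.26).

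Among 19 cyclin, kinase, Rb and E2F genes of the G1/S step, on which the product of cdkn1a acts, 1 was called higher and 5 lower, with a median log2 fold change of −0.09. The shares were 5.26% and 26.3%, against 15.8% and 16.3% over all genes. The gene that rose was rbl2, which encodes the pocket protein p130, a repressor of the cell cycle. It measured 8.61, 10.7, 9.62 and 8.11 CPM in wild type and 18.5, 21.3, 24.2 and 28.1 CPM in the mutant. Mutant pool 4 was again the highest and pool 3 next, as for the 6 risen genes, and the rise was 2.48-fold (adjusted p = 0.000519 in edgeR). cdk2, the kinase that p21 inhibits, fell from 40.7 ± 2.27 to 28.4 ± 2.72 CPM, e2f5 from 5.35 ± 0.988 to 2.60 ± 0.351 CPM and e2f3 from 96.3 ± 2.89 to 73.4 ± 4.88 CPM. Mutant pool 4 was also highest and pool 3 next for e2f3 (69.72, 70.11, 73.45 and 80.26 CPM), but not for cdk2 or e2f5. That order was therefore not particular to risen genes. Without wild-type pool 3 the count lower was 3, and without mutant pool 2 the count higher was 3. The counts over all genes also moved when a library was left out, over the ranges given above.

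Of 18 genes of the G2/M step, which the DREAM complex represses when p21 is active, 5 were called lower and 0 higher by the edgeR test, with a median log2 fold change of −0.25. The share called lower in that test was 27.8%, beside 16.3% of all genes. At an unadjusted p under 0.05, 8 were lower and 0 higher. Many genes met that limit in one direction or the other. The G1/S gene ccne1, ranked 9566 by p among the 22467 genes tested, still met it. The share of all genes lower at that limit is not given here. The count of 8 is therefore not read as a result about the list. DESeq2 called 6 of the G2/M genes lower and 0 higher, beside 4174 lower and 4265 higher among all 22467 genes. ccnb1, which encodes cyclin B1, fell to 58.8% of its wild-type level, the proliferation marker gene mki67 to 61.6%, the mitotic kinase gene cdk1 to 65.4% and the polo kinase gene plk1 to 75.2%. With ribosomal protein share as a covariate 12 were lower and 2 higher, and 1 was higher without wild-type pool 4 or without mutant pool 2. The covariate also raised the counts called over all genes in both directions, as given under the dependence on processing. The larger count is therefore not read as a result about the list.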

How the data were processed

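The authors deposited RSEM expected counts per gene for 8 libraries (RNA depleted of ribosomal RNA, random primers, NovaSeq, per the labels' protocols), not scaled between libraries. Trimmomatic, STAR 2.7, RSEM and the build danRer11 are named per the submitters' processing notes, with no word on settings, gene annotation or strandedness. Because RSEM shares ambiguous reads among similar genes, related copies are less certain, as are genes that overlap on either strand.

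Expected counts were rounded, filtered with filterByExpr at its defaults (22467 genes kept), scaled by TMM and tested with edgeR 4.0.16 in R 4.3.3 (glmQLFit with robust estimation, glmQLFTest, two-sided, Benjamini-Hochberg, adjusted p under 0.05). DESeq2 1.42.0 was an alternative. The SE is the log2 fold change divided by the square root of F. Log2 CPM used a prior count of 0.5. Genotypes came from titles. The labels describe pools, so p-values measure the spread between pools, which may be technical. No pair of libraries agreed within sampling noise (lowest chi-square per degree of freedom 5.8).

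The members and lists were chosen with earlier results of these data known. p53 itself is not a member. Of 173 listed symbols 168 were matched, 165 by symbol and 3 through Ensembl identifiers or RefSeq synonyms (GRCz12tu table, used for names only). Named were all members, all their measured relatives, up to 4 called genes per other list with the smallest p, and the 3 genes most like mdm2 and like cdkn1a among those whose average log2 CPM was 1 or more. ppm1da and rps27l were singled out after their values were seen. The ratios to mdm2 were planned with the design for every other listed member. As aen had no row, 7 were run and the adjustment was made over these 7. The 20 family ratios were added later. On counts simulated for these 22467 genes edgeR recovered 36% of genes changed 2-fold in the comparison of mutant with wild type and 78% of those changed 4-fold. The simulation changed 50 genes at each fold size, far fewer than were called in the data. An adjusted p under 0.05 therefore needed a smaller p there, and these shares do not give the recovery in the data.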

Additional observations from a re-analysis of the deposited data

Results flagged for a closer look

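Within a genotype, 10 of 110 groups of 4 libraries held a library far from the other 3, where about 1 in 20 would by chance. The groups share the same libraries, so they are not independent. Tissue markers were not among the 110 groups, and several of these markers also had a library far from the others. In mutant pool 2 cdh1 (151.3 CPM, next 103.3), cdh17, atp1a1a.4 and coro1a were high. In wild-type pool 4 cdh17, krt5, tie1 and mpx were high, and in mutant pool 1 tnnt3b was high. Among the members, wild-type pool 4 was low for ccng1 (362.2 CPM, next 435.9) and for btg2 (183.9 CPM, next 235.9), and mutant pool 2 was low for btg2 (160.1 CPM, next 191). Wild-type pool 4 was high for ddb2 (20.52 CPM, next 16.29) and plk1 (219.6 CPM, next 186.5). Mutant pool 1 was high for mdm4 (148 CPM, next 72.84) and low for tp53bp2a (106 CPM, next 134.6), ccni (63.03 CPM, next 79.56) and znf395a (183.1 CPM, next 214.1). Mutant pool 2 was low for ntpcr (15.52 CPM, next 17.42).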

How the results depend on the processing

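The count of 6 members called higher was the same under all 17 alternatives. The count lower, 1, was 0 with RLE size factors, with library totals only, without a filter and with the replicate block, 2 when the ribosomal protein share entered as a covariate, and 0 to 2 when each library was left out. These rest on zmat3 and btg2. All genes called higher and lower numbered 3560 and 3665, 5627 and 6043 with the covariate, and 5656 and 5729 without wild-type pool 4 and mutant pool 1, a choice made after seeing the data. With the covariate, p53 regulators had 8 higher and 3 lower, other p53 targets 7 lower, G1/S genes 3 higher and 8 lower, and G2/M genes 2 higher and 12 lower. Without those 2 pools, regulators had 4 higher and 3 lower, other targets 8 and 7, relatives 7 lower, G1/S genes 3 and 8, and G2/M genes 1 higher. Regulators had 1 higher with library totals and 0 lower without a filter, and G1/S genes 2 higher with DESeq2. Leaving out each library gave regulators 1 to 2 higher and 0 to 3 lower, G1/S genes 1 to 3 higher and 3 to 7 lower, and G2/M genes 0 to 1 higher. Over all genes it gave 2630 to 4080 higher and 2680 to 4522 lower. The cause of these changes was not tested.

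Over the libraries left out in turn, log2 ratios to mdm2 shifted by 0.90 to 1.04 for cdkn1a, 0.12 to 0.26 for ccng1, 0.22 to 0.39 for phlda3, −1.80 to −1.61 for btg2, −2.53 to −2.14 for zmat3 and −0.024 to 0.075 for tp53inp1, whose sign reversed without wild-type pool 1 (−0.024) and without mutant pool 3 (−0.012). Deviations of same-numbered pools correlated at 0.594, 0.16, −0.227 and 0.093. Among same-numbered pools, only those numbered 1 were each other's closest partner. Wild-type pool 2 and mutant pool 4 were also each other's closest partner, as were wild-type pool 4 and mutant pool 2. The labels state no pairing, and these correlations do not settle whether the pools were paired. The replicate block called 3525 genes higher and 3668 lower and changed the calls of zmat3, cdkn1d and hipk2, lost at adjusted p = 0.0627, adjusted p = 0.0627 and adjusted p = 0.0661 in edgeR, and of mdm4, among the genes named.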

Other observations

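Some genes of the wider p53 lists ordered the pools of each genotype as the ribosomal protein share did, which was 14.1%, 10.5%, 13.0% and 8.01% in wild-type pools 1 to 4 and 14.4%, 7.26%, 8.80% and 9.90% in the mutant pools. rps27l, a relative of a ribosomal protein gene and a p53 target in human cells, measured 27.2, 17.6, 25.7 and 10.8 CPM in wild type and 132, 58.0, 77.3 and 102 CPM in the mutant, the same order in both genotypes. It was called higher (log2 fold change 2.19, adjusted p = 0.00183 by edgeR), and with that share as a covariate its log2 fold change was 2.45. mdm4 and phlda1 also had the order of the share in wild type. phlda1 had it in the mutant too, at 14.1, 6.73, 12.5 and 14.0 CPM, and mdm4 differed from it only in pools 3 and 4. The 6 risen members had the order of the share over mutant pools 2, 3 and 4. They differed from it in pool 1, which had the highest share, while pool 4 was highest for each of them. Whether the share bears on their levels was not tested. These orders were noticed after the values were seen and are descriptions of 4 pools per genotype.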
